A study of Homo sapiens with 6 samples.

Results

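Integrins are receptors made of an α and a β subunit, which hold cells to the extracellular matrix. The genes described here encode 20 integrin subunits, 12 α and 8 β, and 18 proteins of the focal adhesion, the plaque that ties integrins to actin filaments. These 38 genes were taken by symbol from the 27980 symbols of the count tables, and 35 of them had enough counts to be tested. ITGA9, ITGA11 and ITGB6 did not pass the filter on low counts, with 1 to 2, 1 to 6 and 3 to 10 counts in a shTRIP6 library and 0 to 2, 2 to 5 and 7 to 10 counts in a shControl library.

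The α subunit largely sets which ligand an integrin binds, and each α pairs with few β subunits, β1 having the most partners. Talins and kindlins bind the β tail and switch the receptor to its active state, and vinculin, α-actinin and filamin then couple it to actin. Focal adhesion kinase, p130Cas and paxillin pass on the signal. In colonic epithelium, α6β4 and α3β1 bind the laminins of the basement membrane and α2β1 binds collagen.

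RNA was measured by sequencing in RKO, a poorly differentiated line from a human colon carcinoma. The 3 shTRIP6 libraries came from cells with stable lentiviral expression of a hairpin RNA that targets TRIP6 (genotype TRIP6 knockdown). The 3 shControl libraries came from cells with a scrambled hairpin, whose genotype is given as WT, and both were selected with puromycin. TRIP6 is a LIM-domain adaptor of the zyxin family that resides at focal adhesions. The number of hairpin sequences, and whether the lines were pools or clones, could not be read from the labels. The sample titles read "biol rep", but nothing in the labels says that the replicates came from separate cultures, so p-values measure the spread between these libraries, which may be technical.

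Libraries held 29605764 to 32089298 counts, and values are counts scaled to a common library size (CPM) with TMM, edgeR's factor for library composition. A single count was worth 0.0314 to 0.0336 CPM, and a gene with no count could stand at up to 0.0941 to 0.101 CPM, the floor of 3 counts. TRIP6 itself stood at 19.8, 19.4 and 19.5 CPM in shTRIP6 and 73.9, 86.5 and 80.6 CPM in shControl (a log2 fold change of -2.04 ± 0.07 with an adjusted p of 1.25e-14). The simple-epithelium keratin genes KRT8 and KRT18 stood at 1719.5 ± 72.9 and 885 ± 34.4 CPM in shTRIP6 and 1804 ± 99.5 and 871 ± 54.0 CPM in shControl. Of 11 epithelial markers of the colon 3 were tested, and KRT19, another keratin, was the 1 called (50.7 against 13.8 CPM, log2 fold change 1.87). EPCAM, KRT20, CDX1 and VIL1 had no count in any library. Throughout, ± is the SD over n = 3 libraries for levels and the SE for log2 fold changes of shTRIP6 over shControl, and adjusted p is that of the edgeR quasi-likelihood fit, by Benjamini-Hochberg over all 15473 genes tested. A gene was called at an adjusted p under 0.05.

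Of the 35 tested genes, 8 rose and 16 fell with the TRIP6 hairpin, and 11 were not called. This was 68.6% called, where 60.1% of all tested genes were called. Those called higher in shTRIP6 were 29.0% of all tested genes, and those called lower were 31.2%. The median log2 fold change was -0.15 over the 35 genes and 0.00 over all genes. Changes of at least 2-fold were called in 9 genes, where 14.9% of all tested genes had them. They were called in 3 genes as higher (ITGA4, ITGB2 and ITGB3; 4.38% of all genes) and in 6 as lower (ITGA1, ITGA5, ITGB4, ITGB8, FERMT2 and TNS1; 10.5% of all genes). The ranges of the groups did not overlap in 27 of the 35 genes, against 65.3% of all genes. In bulk RNA, fewer cells that express a gene and less RNA per cell cannot be told apart.

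Most plaque genes changed little in size. Of 17 tested integrin subunits 4 were higher and 8 lower (70.6% called against 60.1% of all genes), with log2 fold changes from -2.55 to 1.05. Of 18 plaque genes 4 were higher and 8 lower (66.7% called, near the share of all genes). Outside FERMT2 and TNS1 their log2 fold changes lay between -0.38 and 0.57.

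**Figure D1:**
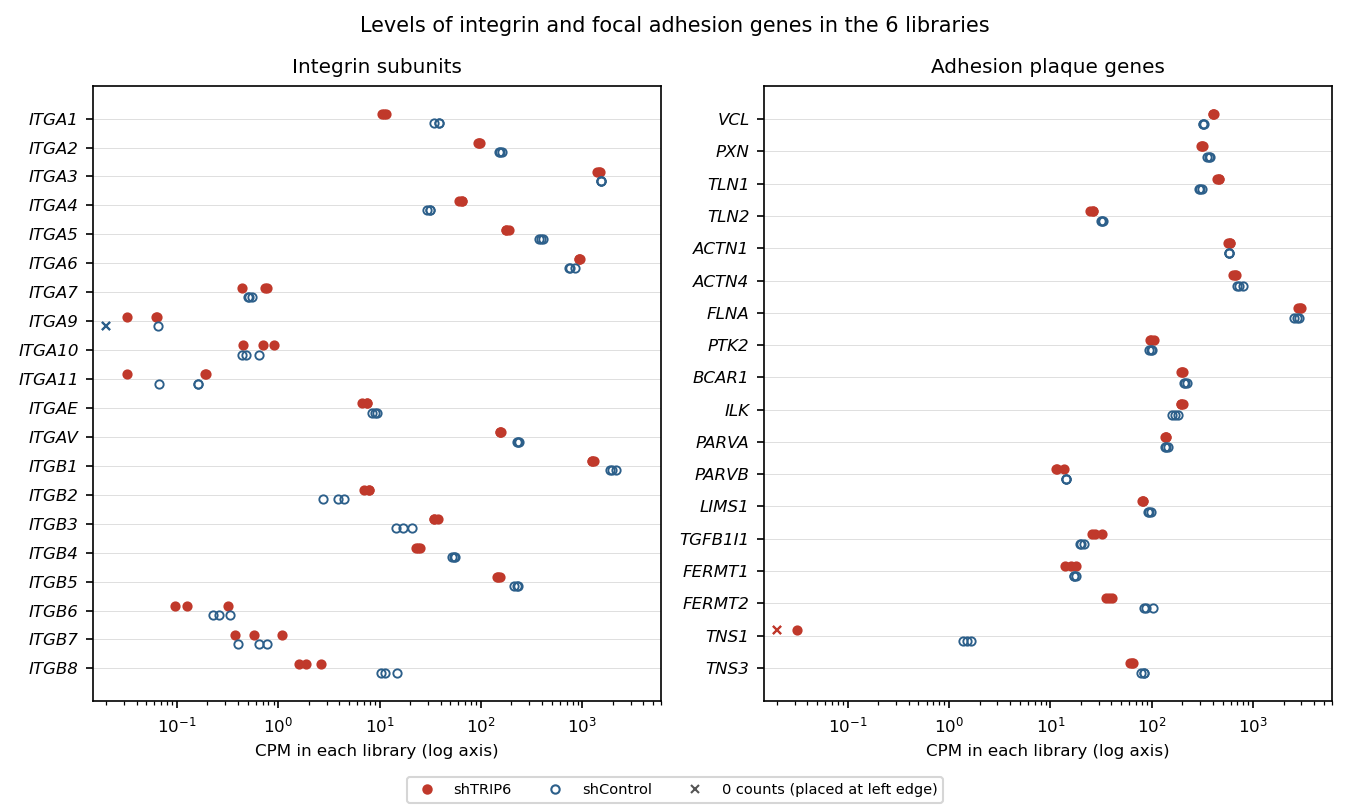
CPM of the 20 integrin genes (left) and 18 adhesion plaque genes (right) in each library on a log axis, with filled points for the 3 shTRIP6 libraries, open points for the 3 shControl libraries and crosses at the left edge for 0 counts. ITGB8 and ITGA1 lie to the left of their controls, ITGA4 and ITGB3 to the right, and TNS1 has 1 count in all shTRIP6 libraries together.

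**Figure D2:**
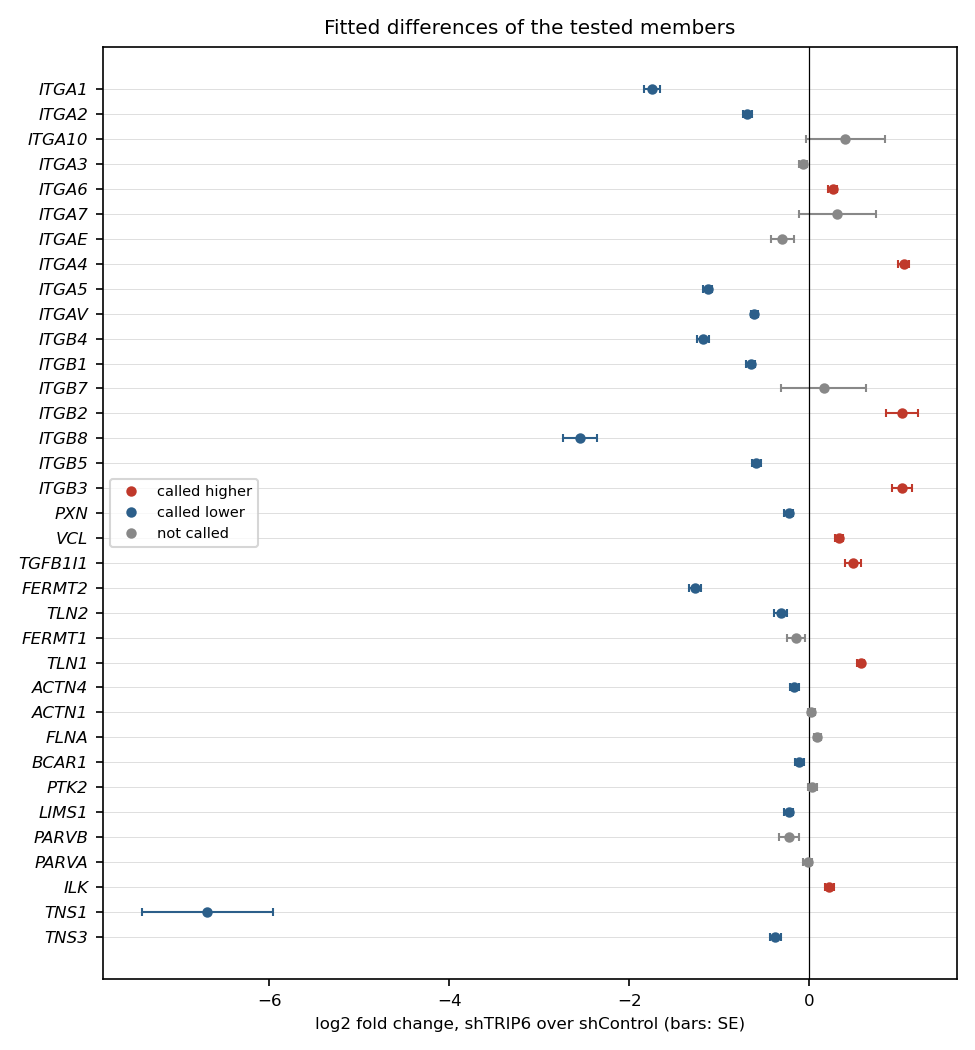
Log2 fold change of shTRIP6 over shControl for the 35 tested genes, grouped by role, with bars for the SE. Genes called lower reach -6.69 (TNS1, which rests on 1 count in shTRIP6) and -2.55 (ITGB8), and the genes called higher end at 1.05 (ITGA4).

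The collagen receptors were lower. ITGA1 and ITGA2, the main collagen-binding α subunits, are neighbours on chromosome 5, 30115 bases apart with no other gene of the table between them (ITGA1 from 52787896 to 52959210 and ITGA2 from 52989326 to 53094779, both on the plus strand, GRCh38). ITGA1 stood at 11.1, 11.6 and 10.5 CPM in shTRIP6 and 38.3, 38.7 and 34.5 in shControl, in the order of the replicate numbers (as for all such values). Every shTRIP6 value was below every shControl value, at 29.7% of the control mean (log2 fold change -1.75 ± 0.09, adjusted p = 2.86e-12). ITGA2 stood at 98.5, 93.1 and 94.8 CPM in shTRIP6 and 160.1, 154 and 149 in shControl, again without overlap, at 61.9% of the control mean (log2 fold change -0.69 ± 0.05, adjusted p = 8.73e-10). Exons of ITGA1 overlap those of PELO on the same strand, a gene with 218% of the counts of ITGA1 that was higher in shTRIP6 (log2 fold change 0.35). The other collagen-binding subunits were scarce. ITGA10 stood at 0.437 to 0.910 CPM over all libraries and was not called, and ITGA11, at 0.0322 to 0.192 CPM, was close to the floor.

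The sequences before the starts of this neighbouring pair are shown because both genes were lower. They are the 250 bases before the RefSeq start (GRCh38.p14), at chr5:52787666-52787915, plus strand, and chr5:52989102-52989351, plus strand. Capitals mark GGGCGG on either strand, the core bound by the SP1 family of transcription factors.
ITGA1: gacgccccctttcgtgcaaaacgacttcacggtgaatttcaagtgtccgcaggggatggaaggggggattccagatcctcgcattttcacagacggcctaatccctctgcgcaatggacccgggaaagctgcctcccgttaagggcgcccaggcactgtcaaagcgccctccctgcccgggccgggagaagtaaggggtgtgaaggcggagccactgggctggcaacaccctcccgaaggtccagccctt
ITGA2: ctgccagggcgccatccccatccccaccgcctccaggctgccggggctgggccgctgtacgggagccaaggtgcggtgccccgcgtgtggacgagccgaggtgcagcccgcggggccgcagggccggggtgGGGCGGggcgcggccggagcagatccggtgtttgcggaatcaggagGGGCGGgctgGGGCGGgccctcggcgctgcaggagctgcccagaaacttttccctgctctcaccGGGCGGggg
The ITGA2 window held 4 matches to GGGCGG and that of ITGA1 held 0, where 42.6% of 35116 windows of this length held at least 1. GC content was 62.0% for ITGA1 and 76.4% for ITGA2, with 16 and 26 CpG dinucleotides, against a median of 58.0% and 11 over all windows. Neither window held the AP-1 sequence TGANTCA or the TEAD sequence GGAATG, which 6.57% and 11.9% of windows held. These are matches of letters only, and binding was not measured.

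The laminin receptors diverged between α6 and β4, which pair with each other at hemidesmosomes. ITGA6 stood at 936, 931 and 957 CPM in shTRIP6 and 845, 764 and 743 in shControl and was higher without overlap (log2 fold change 0.26 ± 0.05, adjusted p = 6.89e-05). ITGB4, whose long tail binds plectin, stood at 24.8, 24.0 and 22.7 CPM in shTRIP6 and 54.8, 51.8 and 55.0 in shControl. It fell to 44.2% of the control mean (log2 fold change -1.18 ± 0.07, adjusted p = 3.85e-11). Per kilobase of exon (RPKM, CPM over the summed exon length), ITGA6 was 39.1 to 43.6 times ITGB4 in shTRIP6 and 14.0 to 15.9 times in shControl. ITGA3, the other laminin-binding α subunit of epithelia, stood at 1459, 1477 and 1408 CPM in shTRIP6 and 1519.6, 1513 and 1521 in shControl and was not called (log2 fold change -0.07 ± 0.04, adjusted p = 0.117), although its ranges did not overlap. ITGA6 made up 49.4% ± 0.991 of the summed RPKM of ITGA3, ITGA6 and ITGA7 in shTRIP6 and 43.6% ± 1.67 in shControl. ITGA7, a muscle laminin receptor, stood at 0.439 to 0.772 CPM over all libraries and was not called. It overlaps 3 genes on the opposite strand that held 4135% to 5681% of its counts, and without the strand setting its reads cannot be told from theirs.

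The fibronectin receptor subunit ITGA5 had the largest fall among the α subunits after ITGA1. ITGA5 binds the RGD sequence of fibronectin as α5β1 and lies on chromosome 12 from 54395261 to 54419460, minus strand. It stood at 176, 187 and 175 CPM in shTRIP6 and 373, 389 and 413 in shControl, 45.8% of the control mean (log2 fold change -1.13 ± 0.05, adjusted p = 3.32e-13). ITGAV, which binds RGD with several β subunits, stood at 153, 153 and 156 CPM in shTRIP6 and 239.6, 234 and 229 in shControl (log2 fold change -0.61 ± 0.04, adjusted p = 1.06e-09). Both were lower without overlap between the groups. Of the RPKM of both subunits, ITGA5 took 55.8% ± 1.08 in shTRIP6 and 64.4% ± 1.68 in shControl.

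ITGB1, the β subunit shared by the collagen, laminin and fibronectin receptors, was the most abundant integrin per length in both groups. It stood at 1243, 1252 and 1299 CPM in shTRIP6 and 2138, 1942 and 1866 in shControl, and all shTRIP6 libraries were lower (log2 fold change -0.65 ± 0.05, adjusted p = 5.30e-10). Per length it reached 210.4 ± 5.08 RPKM in shTRIP6 and 329.7 ± 23.3 RPKM in shControl. Its α partners changed by unequal amounts. The ratio of ITGA3 to ITGB1, per length, was 0.703 ± 0.0333 in shTRIP6 and 0.471 ± 0.0325 in shControl, and that of ITGA6 to ITGB1 was 0.678 to 0.693 and 0.362 to 0.366. The ratio of ITGA5 to ITGB1 was lower, at 0.107 to 0.118 against 0.139 to 0.175. The ratios of ITGA2 and ITGAV to ITGB1 overlapped between the groups. Summed over all 12 α subunits the level was 356 ± 1.78 RPKM in shTRIP6 and 382 ± 7.49 RPKM in shControl, and over all 8 β subunits 246 ± 4.83 and 378 ± 21.6 RPKM.

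Ordered by level per length of exon unions, ITGB1, ITGA3, ITGA6, ITGA5, ITGB5, ITGAV and ITGA2 led the integrins in this sequence in both groups. In shTRIP6 the neighbours ITGA3 (148 ± 3.68 RPKM) and ITGA6 (144 ± 2.13 RPKM) overlapped, as did ITGA5 (23.1 to 24.6 RPKM) and ITGB5 (22.3 to 23.9 RPKM), while in shControl neither pair did. ITGB4 followed ITGA2 in shControl, at 7.97 ± 0.268 RPKM, above ITGB3 and ITGA4. In shTRIP6 it stood below both, at 3.52 ± 0.151 RPKM, and ITGB3 and ITGA4 overlapped each other in either group. This order, these overlaps and the share of ITGA6 given above hold for exon unions and can differ with other lengths. The longest transcript of ITGA4 has 4189 bases (7901 in the union) and that of ITGA2 has 7869 (7910). For ITGA3 it has 5479 (9802) and for ITGA6 5618 (6533).

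The β subunits that join αV moved in opposite directions. ITGB8 had the largest fall of the tested integrins. Its product forms αvβ8, a receptor that releases active TGF-β from its latent complex, and the gene lies on chromosome 7 from 20330702 to 20415754, plus strand. It stood at 2.67, 1.60 and 1.90 CPM in shTRIP6 and 14.7, 11.4 and 10.3 in shControl, 17.0% of the control mean (log2 fold change -2.55 ± 0.19, adjusted p = 1.55e-09). ITGB5, the vitronectin receptor subunit, stood at 144, 154 and 148 CPM in shTRIP6 and 214, 228 and 230.0 in shControl (log2 fold change -0.59 ± 0.05, adjusted p = 4.31e-09). Both were lower in every shTRIP6 library than in any shControl library. ITGB3, the subunit shared by αvβ3 and the platelet fibrinogen receptor, rose. It lies on chromosome 17 from 47253846 to 47311816, plus strand, and stood at 34.8, 37.5 and 34.4 CPM in shTRIP6 and 14.4, 20.9 and 16.9 in shControl (log2 fold change 1.03 ± 0.11, adjusted p = 1.03e-07). ITGB6, an epithelial partner of αV, stood at 0.0959 to 0.336 CPM in all libraries and was not tested.

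As shares of the summed RPKM of these 4 β subunits, ITGB3 took 25.8% ± 0.512 in shTRIP6 against 9.96% ± 1.48 in shControl. ITGB5 took 73.6% ± 0.439 against 87.9% ± 1.23, and ITGB8 0.436% ± 0.130 against 2.03% ± 0.478. None of these 3 shares overlapped between the groups. ITGB5 was the most abundant of the 4 per length in every library. The partner ITGA2B of the platelet receptor was at 0.159 ± 0.0337 CPM in shTRIP6 and 0.132 ± 0.0688 CPM in shControl, and the platelet genes GP9, PF4 and PPBP had no count in any library. Of the 5 platelet markers only GP1BA was tested, and it was lower (0.392 against 0.842 CPM, log2 fold change -1.09).

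**Figure D3:**
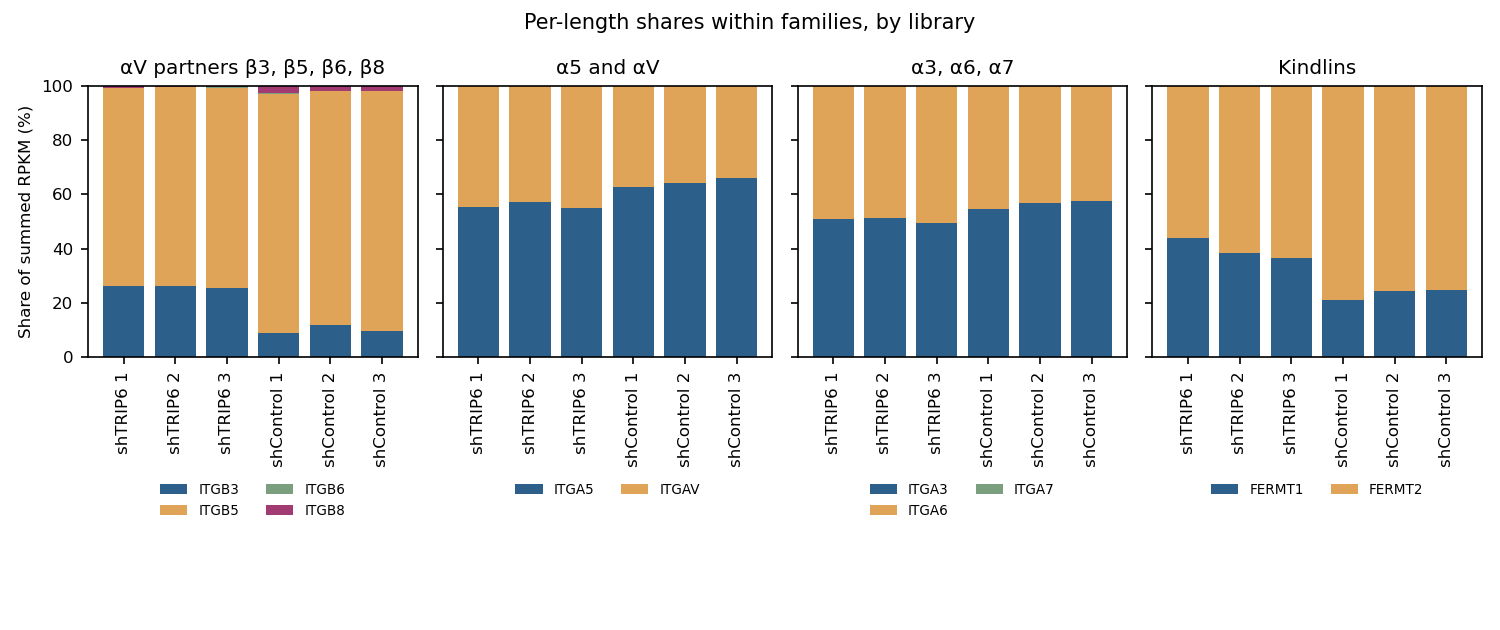
Share of summed RPKM in percent that each gene takes within its family, 1 bar per library. ITGB3 fills 25.3% to 26.3% of its family in shTRIP6 and 8.73% to 11.6% in shControl, and FERMT1 36.6% to 44.0% of the kindlins against 21.1% to 24.6%.

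Of the subunits best known from leukocytes, ITGA4 and ITGB2 rose. ITGA4, which binds fibronectin and VCAM1, lies on chromosome 2 from 181457202 to 181536187, plus strand. It stood at 65.4, 61.1 and 64.8 CPM in shTRIP6 and 31.7, 29.4 and 31.3 in shControl, with all shTRIP6 libraries higher (log2 fold change 1.05 ± 0.06, adjusted p = 7.03e-11). ITGB2, the common β subunit of the leukocyte integrins, stood at 7.88, 7.80 and 7.07 CPM in shTRIP6 and 2.76, 3.92 and 4.43 in shControl (log2 fold change 1.03 ± 0.18, adjusted p = 5.66e-05). Its exons overlap those of ITGB2-AS1 on the opposite strand, which held 30.1% of its counts and was also higher (log2 fold change 0.82, adjusted p = 0.0318). No α partner of ITGB2 passed the filter: ITGAL, ITGAM, ITGAX and ITGAD had 0 to 5 counts in a shTRIP6 library and 0 to 12 in a shControl library. The summed level of 12 leukocyte markers, ITGAM among them, was 2.94 to 3.83 CPM in shTRIP6 and 0.706 to 1.99 CPM in shControl. Of the 3 tested, 1 was higher, CD14 (2.22 against 0.520 CPM), which made up most of the sum in shTRIP6. The defining marker PTPRC (CD45) had no count in shTRIP6 and 0 to 8 counts in a shControl library, and SPI1 had none in any library.

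ITGAE, which pairs with β7 and binds E-cadherin, stood at 7.44, 6.78 and 7.59 CPM in shTRIP6 and 8.34, 9.02 and 9.48 in shControl and was not called (log2 fold change -0.30 ± 0.13, adjusted p = 0.0561), although its ranges did not overlap. It passed without scaling (adjusted p = 0.0470) and with shControl replicate 1 left out (adjusted p = 0.0309), while its 14 alternatives spanned 0.0309 to 0.174. ITGB7 stood at 0.377 to 1.09 CPM over all libraries and was not called. Both overlap genes on the opposite strand with more counts, HASPIN with 360.2% of those of ITGAE and ZNF740 with 7772% of those of ITGB7. E-cadherin itself (CDH1) had 0 to 1 counts in a shTRIP6 library and 7 to 9 in a shControl library.

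Both talins changed, in opposite directions. TLN1, the widely expressed talin, stood at 456, 459 and 436 CPM in shTRIP6 and 295, 298 and 314 in shControl and was higher (log2 fold change 0.57 ± 0.04, adjusted p = 1.67e-09). TLN2, its paralog, stood at 26.5, 26.3 and 24.8 CPM in shTRIP6 and 31.7, 32.6 and 32.8 in shControl and was lower (log2 fold change -0.32 ± 0.07, adjusted p = 0.000852). The groups did not overlap in either gene. TLN1 already made up 93.8% ± 0.147 of talin RPKM in shControl and reached 96.6% ± 0.0351 in shTRIP6. Exons of TLN1 overlap those of CREB3 on the opposite strand, with 13.7% of its counts.

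Of the kindlins, FERMT2 (kindlin-2) was lower and FERMT1 (kindlin-1, the epithelial form) was not called. FERMT2 lies on chromosome 14 from 52857268 to 52952435, minus strand, and stood at 35.7, 40.5 and 37.8 CPM in shTRIP6 and 102, 84.5 and 88.4 in shControl, 41.5% of the control mean (log2 fold change -1.27 ± 0.07, adjusted p = 2.59e-11). FERMT1 stood at 17.7, 15.9 and 13.8 CPM in shTRIP6 and 17.1, 17.0 and 18.1 in shControl, with overlapping groups (log2 fold change -0.15 ± 0.10, adjusted p = 0.234). The share of FERMT1 in kindlin RPKM was 39.6% ± 3.84 in shTRIP6 and 23.3% ± 1.93 in shControl. Per length, TLN1 was 9.56 to 10.8 times FERMT2 in shTRIP6 and 2.45 to 3.00 times in shControl.

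Vinculin and the paxillin family showed small changes that did not overlap. VCL, which strengthens the link of talin to actin, stood at 412, 401 and 406 CPM in shTRIP6 and 331, 321 and 319 in shControl (log2 fold change 0.33 ± 0.04, adjusted p = 1.51e-06). PXN, the paxillin scaffold, stood at 319, 303 and 311 CPM in shTRIP6 and 379.6, 349 and 365 in shControl (log2 fold change -0.23 ± 0.05, adjusted p = 0.000247). TGFB1I1 (Hic-5), its LIM-domain paralog, stood at 32.1, 25.7 and 27.7 CPM in shTRIP6 and 21.3, 20.2 and 19.5 in shControl (log2 fold change 0.49 ± 0.09, adjusted p = 0.000137). VCL and TGFB1I1 were thus higher and PXN lower, and the share of TGFB1I1 in the RPKM of the pair was 11.2% ± 0.874 against 7.16% ± 0.269. Genes on the opposite strand overlap VCL (AP3M1, 35.8% of its counts) and PXN (PXN-AS1, 11.8%).

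The actin crosslinkers were abundant and nearly level. FLNA (filamin A), the most abundant of the 18 plaque genes per length, stood at 2904, 2936 and 2779 CPM in shTRIP6 and 2531, 2717 and 2835 in shControl and was not called (log2 fold change 0.09 ± 0.04, adjusted p = 0.0632). It passed in 5 of 14 alternatives, whose adjusted p ran from 0.00630 to 0.184. ACTN1 stood at 586, 598 and 568 CPM in shTRIP6 and 574, 575 and 584 in shControl and was not called (log2 fold change 0.02 ± 0.04, adjusted p = 0.755). ACTN4, the other non-muscle α-actinin, was lower by a small amount (log2 fold change -0.17 ± 0.05, adjusted p = 0.00478).

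The binding motif of SRF (the CArG box), a factor known to drive many actin cytoskeleton genes, was found before a RefSeq start of FLNA, ACTN1, TGFB1I1 and ITGB6. These are 4 of the 29 genes described here that have a promoter in the RefSeq table, against 1.44% of its 27305 genes. A gene can have several starts, and by window the motif was in 4 of the 55 of these genes, against 1.16% of all 35116. The AP-1, TEAD and SP1 sequences were searched in the same way. They were in 3, 8 and 29 of the 55 windows, against 6.57%, 11.9% and 42.6% of all. The matches are shown, in capitals with 10 bases on each side, because these 4 genes share the motif while their values differ. The windows are chrX:154374709-154374738, minus strand for FLNA, chr14:68977718-68977747, minus strand for ACTN1, chr16:31473144-31473173, plus strand for TGFB1I1, and chr2:160200313-160200342, minus strand for ITGB6 (GRCh38.p14).
FLNA: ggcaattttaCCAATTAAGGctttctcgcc
ACTN1: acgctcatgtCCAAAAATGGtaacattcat
TGFB1I1: tggaggggagCCAAATTTGGcttgggtgaa
ITGB6: cacctgccttCCTTATAAGGagaacaagga
The capitals begin 94, 171, 51 and 60 bases before the start used. TGFB1I1 was called higher, FLNA and ACTN1 were not called, and ITGB6 was near the floor. ACTN1 and TGFB1I1 have further RefSeq starts without a match in their windows. Here too only letters were matched, and neither binding of SRF nor an excess of its motif was tested.

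The signalling pair of focal adhesion kinase and p130Cas was close to level. PTK2, which encodes focal adhesion kinase, stood at 105, 99.2 and 95.8 CPM in shTRIP6 and 101, 93.7 and 99.1 in shControl (log2 fold change 0.03 ± 0.05, adjusted p = 0.641). BCAR1 (p130Cas) stood at 202, 199 and 195 CPM in shTRIP6 and 208, 213 and 223 in shControl and was called lower by a small margin (log2 fold change -0.11 ± 0.05, adjusted p = 0.0429). That call was lost in 8 of 14 alternatives, among them upper-quartile scaling (adjusted p = 0.240), with a range of 0.00591 to 0.240. It was lost without any 1 of shTRIP6 replicates 1 (0.0960), 2 (0.130) or 3 (0.177) and shControl replicates 2 (0.0676) or 3 (0.155).

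The complex of ILK, PINCH and parvin, which bridges β1 tails to actin, had log2 fold changes between -0.23 and 0.22. ILK stood at 195, 203 and 195 CPM in shTRIP6 and 159, 168 and 183 in shControl and was higher (log2 fold change 0.22 ± 0.05, adjusted p = 0.00149). Its exons overlap TAF10 on the opposite strand, which held 33.1% of its counts and was also higher (log2 fold change 0.19, adjusted p = 0.0172). LIMS1 (PINCH-1) stood at 80.7, 82.2 and 81.1 CPM in shTRIP6 and 99.3, 94.3 and 91.8 in shControl and was lower (log2 fold change -0.23 ± 0.05, adjusted p = 0.00112). LIMS1 has near-identical copies in the genome, so its counts are uncertain. PARVA stood at 135 to 138 CPM in shTRIP6 and 135 to 145 CPM in shControl and was not called (log2 fold change -0.02). PARVB stood at 11.3, 11.7 and 13.5 CPM in shTRIP6 and 14.4, 14.1 and 14.4 in shControl and was not called (log2 fold change -0.23 ± 0.11, adjusted p = 0.0689), but it passed with shTRIP6 replicate 3 left out (0.0388), the lowest adjusted p of alternatives that reached up to 0.253.

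TNS1 and TNS3, of the tensins that bind β tails and actin in mature adhesions, were both lower. Of the other tensins, TNS2 was higher and TNS4 lower (log2 fold changes 0.55 and -6.04). TNS1 had 1, 0 and 0 counts in shTRIP6 and 45, 51 and 42 counts in shControl. The ratio of 1 to 138 counts, scaled by library size, was 0.706% of the control (95% exact Clopper-Pearson interval 0.0177% to 4.00%, counting error only), and edgeR called it lower (adjusted p = 2.35e-07). Its fitted log2 fold change of -6.69 is no bound. With each library left out, it ran from -8.53 without shTRIP6 replicate 1, which holds the 1 count, to -6.24 without shTRIP6 replicate 2 or 3. Over all 14 alternatives it ran from -8.53 to -6.04. TNS1 lies on chromosome 2 from 217799588 to 218033982, minus strand. TNS3 stood at 64.6, 61.5 and 64.5 CPM in shTRIP6 and 84.7, 79.0 and 83.5 in shControl and was lower without overlap (log2 fold change -0.38 ± 0.06, adjusted p = 1.13e-05). TNS1 was scarce in both groups, at 1.31% ± 0.159 of the RPKM of TNS1 and TNS3 in shControl.

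Other genes of the pathway were counted in lists set by function, to be read against the 60.1% of all genes called, 29.0% higher and 31.2% lower. Of 9 tested paralogs of the plaque genes, 3 were higher and 4 lower (77.8% called, median log2 fold change -0.36). The tensin gene TNS4 stood at 0.837 ± 0.394 against 55.3 ± 7.52 CPM and NEDD9, the paralog of BCAR1, at 1.69 ± 0.355 against 21.8 ± 1.22 CPM (log2 fold changes -6.04 and -3.69). FLNC, the filamin of muscle, and the tensin TNS2 rose by 0.78 and 0.55 on the log2 scale. Of 19 regulators of integrin activation and traffic, 7 were higher and 5 lower (median 0.08), and their 63.2% called was near that of all genes. KANK4, of a family that binds talin, stood at 0.0636 ± 0.0640 against 7.95 ± 0.359 CPM and RASIP1, a RAP1 effector, at 0.934 ± 0.227 against 6.48 ± 0.458 CPM. KANK3 and SNX17, which sorts β1 integrins back to the surface, rose by 1.37 and 0.76 on the log2 scale. Among the genes named from these lists, exons of 9 overlap those of another gene, whose reads their counts may hold: FLNC, TNS2, KANK3 (with RPS28), SNX17 (with ZNF513), STARD13, LAMB3, LAMA5, TGFB1 and COL17A1.

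Among 33 tested adhesion kinases, adaptors and GTPase regulators, 16 were higher and 9 lower (75.8% called against 60.1% of all genes, median 0.15). The kinase SRC, which phosphorylates FAK partners, stood at 20.5 ± 0.841 against 9.91 ± 0.498 CPM (log2 fold change 1.05), and STARD13, a RhoGAP, rose by 0.94 on the log2 scale. GRB7, an adaptor that binds FAK, stood at 0.168 ± 0.191 against 3.30 ± 0.579 CPM and the SRC-family kinase FYN at 15.5 ± 2.28 against 25.4 ± 1.09 CPM. Of 13 hemidesmosome and tetraspanin partners, 8 were higher and 3 lower (84.6% called, median 0.30), where 29.0% of all genes were called higher. CD82, a tetraspanin, stood at 70.7 ± 0.978 against 24.8 ± 2.32 CPM and COL17A1, a hemidesmosomal collagen, at 5.99 ± 0.359 against 2.00 ± 0.524 CPM. TSPAN8 stood at 0.0635 ± 0.0550 against 11.5 ± 1.17 CPM, and BSG (basigin) fell to 314 ± 7.92 against 480.0 ± 28.9 CPM.

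Among the matrix ligands of these receptors, changes of at least 2-fold were called in 9 of 16 tested collagens, 3 of 11 laminin chains and 8 of 18 RGD and related ligands, where 14.9% of all genes had them. Of the 16 collagens 4 were higher and 10 lower (87.5% called against 60.1% of all genes, median -0.76), with COL5A1 at 47.0 ± 0.720 against 973 ± 7.70 CPM and COL4A5 at 2.34 ± 0.957 against 37.0 ± 1.31 CPM. COL6A3 and COL6A2, chains of collagen VI, rose to 379 ± 9.02 against 134 ± 1.23 CPM and 98.9 ± 5.26 against 36.3 ± 2.58 CPM. Of 11 laminin chains 3 were higher and 4 lower (median -0.16), and their 63.6% called was near that of all genes. LAMA4 and LAMA5, α chains of basement membranes, stood at 0.904 ± 0.222 against 61.6 ± 0.983 CPM and 9.33 ± 1.98 against 273 ± 6.77 CPM. LAMB3 and LAMA1 rose by 0.78 and 0.65 on the log2 scale.

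Of 18 tested RGD and related ligands, including latent TGF-β and its binding proteins, 7 were higher and 9 lower (88.9% called against 60.1% of all genes, median -0.20). FBN1 (fibrillin-1) stood at 7.59 ± 0.604 against 409 ± 8.61 CPM and EDIL3, a ligand of αvβ3, at 0.190 ± 0.165 against 10.4 ± 0.385 CPM. MFGE8, another ligand of αv integrins, and TGFB1 rose by 1.09 and 0.55 on the log2 scale. Fibronectin, named after its values were seen as the ligand of ITGA5, stood at 186 ± 5.36 against 472 ± 22.0 CPM (FN1, log2 fold change -1.34, adjusted p = 1.32e-14). Vitronectin, named likewise as a ligand of ITGB5, stood at 0.650 ± 0.311 against 20.7 ± 1.75 CPM (VTN, log2 fold change -4.99). ITGA4, which also binds fibronectin, and ITGB3, another β partner of αV, were higher (log2 fold changes 1.05 and 1.03). Whether ligands and receptors changed together was not tested. Of 7 tested counter-receptors on other cells, 4 were lower and 3 were not called (57.1% called, median -0.36), with ICAM1, the ligand of the β2 integrins, at 25.6 ± 1.38 against 47.4 ± 3.47 CPM and the metalloprotease ADAM9 at 262 ± 8.25 against 347 ± 3.70 CPM. VCAM1, the ligand of α4β1, had no count in any library.

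**Figure D4:**
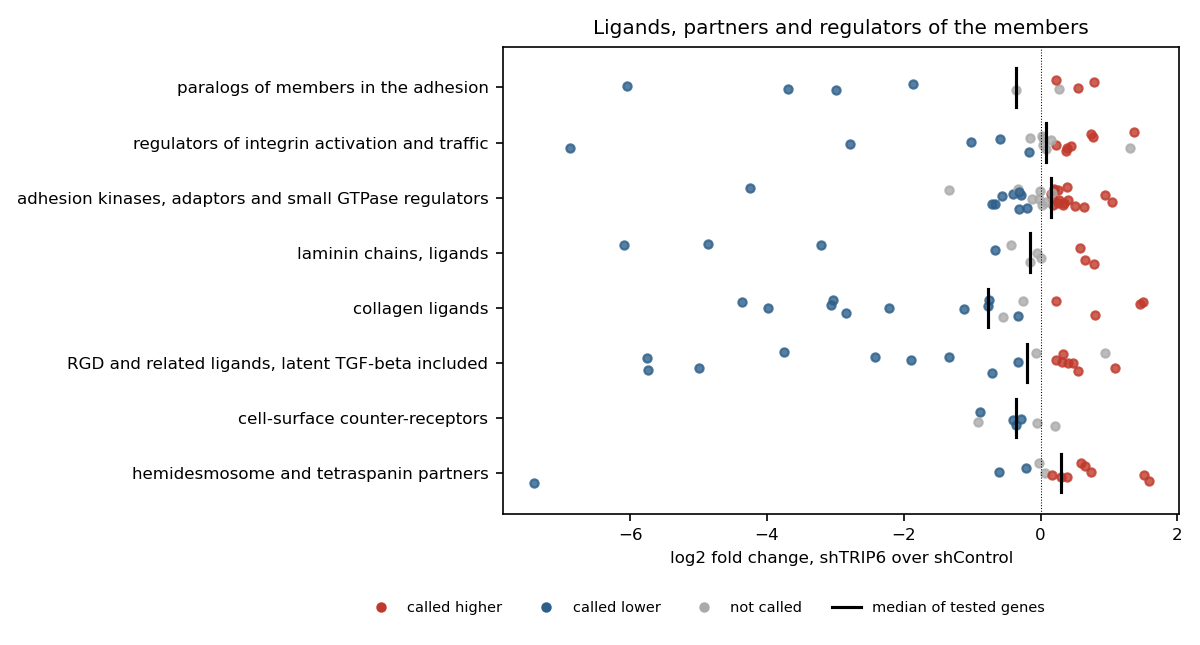
Log2 fold change of each tested gene in 8 lists of ligands, partners and regulators, coloured by call, with a bar at the median of each list. Genes called lower reach -7.41 (TSPAN8), and the genes called higher end at 1.58 (COL17A1).

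Markers of other cells that could bring integrin or matrix RNA were read in the same libraries. Of 9 tested fibroblast markers 2 were higher and 5 lower, where 29.0% of all tested genes were called higher and 31.2% lower. The summed level of the fibroblast markers was 159.9 to 180.3 CPM in shTRIP6 and 116 to 129 CPM in shControl. Most of that sum was THY1 (153 against 89.3 CPM), which was higher, as was PDGFRB (13.9 against 6.89 CPM). The 5 lower were COL1A1, COL3A1, FAP, DCN and POSTN. FAP stood at 0.328 against 15.0 CPM, and DCN and POSTN had no count in shTRIP6 and 31 to 33 and 30 to 46 counts in a shControl library. The 6 endothelial markers summed to 0.345 to 0.450 CPM in shTRIP6 and 2.29 to 2.57 CPM in shControl, with PECAM1 at 0 counts in shTRIP6. The part of these markers in the values of the integrin and matrix genes was not tested.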

How the data were processed

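RNA from 6 RKO samples (3 shTRIP6, 3 shControl) was sequenced, and the authors deposited whole-number read counts per gene symbol for each sample. TopHat2, edgeR, limma and hg38 are named per the submitters' processing notes, without their roles. No source used here names the counting tool or says whether strand was used. Groups came from the sample labels. The counts were filtered with filterByExpr (15473 of 27980 symbols tested), scaled by TMM and tested with edgeR 4.0.16 (R 4.3.3) by its quasi-likelihood test on group alone, at a Benjamini-Hochberg adjusted p of 0.05. The procedure was checked on simulated data in which few genes changed. It was not checked on changes as broad as those here, where 60.1% of genes were called. Gene positions and exon lengths came from GENCODE release 29, and promoter sequences from RefSeq (GRCh38.p14), where 29 of the 38 genes matched.

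Named were TRIP6, all 38 genes, and from each of 9 other lists up to 2 called rises and 2 called falls of largest log2 fold change with a mean of at least 1 CPM. FN1 and VTN, and the markers and untested genes given as values, lie outside this rule. The members and lists were chosen with earlier results of these data known. Alternatives were RLE, upper-quartile or no scaling, 2 other low-count filters, DESeq2 1.42.0, limma-voom (limma 3.58.1), a replicate block, leaving out each library, lengths of the longest transcript and, chosen after seeing the data, only genes without overlapping exons.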

Additional observations from a re-analysis of the deposited data

How the results depend on the processing

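Of the 35 tested genes, 29 kept their direction and their side of the threshold in every alternative to the scaling, filter, test and libraries in which they were tested, and 6 changed in some. These were 14 alternatives, or 13 for ITGA7, ITGA10 and ITGB7, which did not pass a filter of at least 1 CPM in 3 libraries. The 6 were BCAR1, FLNA, ITGAE, PARVB, ITGB7 and PARVA. ITGB7 turned to -0.34 without shTRIP6 replicate 2 and to -0.06 without shControl replicate 1, and PARVA to 0.03 with upper-quartile scaling and to 0.01 without shControl replicate 1. Over leaving out each library, ITGB7 ranged from -0.34 to 0.46 and PARVA from -0.04 to 0.01. None of these values of ITGB7 and PARVA was called, and the cause was not tested. Leaving out each library gave 8 to 9 of these genes higher and 15 to 17 lower. An alternative chosen after seeing the data kept only genes whose exons overlap no other gene. Of its 25 tested genes, 4 were higher and 13 lower (68.0% called). It left out the higher calls on ITGB2, VCL, TLN1 and ILK and the lower calls on ITGA1, PXN and ACTN4. With lengths of the longest transcript, the difference in share (shTRIP6 minus shControl) was 13.0 percentage points for ITGB3 (15.9 with exon unions), -11.1 for ITGB5 (-14.3), -7.18 for ITGA1 (-4.61), 6.59 for ITGA2 (4.10) and 3.28 for TLN1 (2.80). Higher calls made up 48.2% of all calls, and 46.5% to 53.7% over the scalings.

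Samples with the same replicate number did not deviate together (correlations -0.0448 to -0.0234). With the replicate block, 8 of the genes were higher and 15 lower, the call on BCAR1 being lost (adjusted p = 0.0733 by edgeR), and 4377 and 4702 of all genes were called. At this depth ITGA9, ITGA11 and ITGB6 had too few counts to be tested.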
